A study of Mus musculus with 22 samples.

Results

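A set of 34 genes whose transcripts are repeatedly reported to be more abundant in haematopoietic stem cells (HSCs) of old mice was followed here from young to middle age. The 34 genes were taken by symbol from the 55416 gene identifiers of the count tables, and all of them were found. RNA had been sequenced from HSCs of 11 mice, sorted from lineage-depleted marrow of femurs and tibiae by the HSC gate Lin- Sca1+ Kit+ CD150+ CD48-. Each mouse gave 1 library of HSCs that stained for the leptin receptor (LEPR+) and 1 of HSCs that did not (LEPR-), so there were 22 libraries in 4 groups. The young mice, numbered 1 to 4, were 2 to 3 months old, and the mice labelled midage, numbered 5 to 11, were 12 to 15 months old. There were 2 males among the 4 young mice and 2 among the 7 midage mice. The labels name no transgene, treatment or strain, and none is given in the sources used here. The stage labelled midage is short of old age, so the question for each gene was whether its transcript was already high at that stage in either LEPR fraction.

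HSCs sit at the top of blood formation, and most of them are quiescent in the marrow. With age their number grows while their output in a transplant falls and shifts toward platelets and myeloid cells. A set of transcripts that recurs across studies of old HSCs encodes cell-surface and adhesion molecules, proteins of membrane traffic and detoxifying enzymes, several of which are also made by megakaryocytes or vascular cells. P-selectin (Selp), clusterin (Clu) and aldehyde dehydrogenase 1A1 (Aldh1a1) are well-known members of that set.

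All values below are CPM, a gene's counts relative to the library's total, scaled between libraries by the trimmed mean of M-values (TMM), unless another unit is named. Libraries held 10325587 to 61697039 counts in genes, and 3 counts corresponded to between 0.0452 and 0.279 CPM. A change was called at an adjusted p under 0.05 in edgeR's quasi-likelihood test with Benjamini-Hochberg adjustment over all genes tested, 17366 by library and 17019 in counts summed per mouse. All adjusted p-values here are from that test unless another is named. All 34 genes passed the low-count filter, which a gene near 0 in the young libraries can pass through the midage libraries alone. The 10 HSC marker genes listed for a check of identity all had counts in each group, with a summed level of 692 to 1916 CPM in young libraries and 1262 to 2975 CPM in midage libraries. The 7 erythroid genes listed summed to 2466 to 5389 CPM in young and 2645 to 5372 CPM in midage libraries. The median sum of the 6 neutrophil genes was 285 CPM in young and 5.19 CPM in midage LEPR- HSCs, with single libraries up to 835 and 102 CPM. In LEPR+ HSCs it was 4.68 CPM in young and 2.79 CPM in midage mice. None of the erythroid or neutrophil genes tested was called in an age fit. The part of such cells in the results was not tested. The transcript of Lepr itself was at or near 0 in most libraries, with a median of 0 CPM in midage LEPR+ HSCs and a highest value of 10.0 CPM. RNA level therefore gave no check of the LEPR sort.

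More genes were under 1 CPM in the young libraries than in most midage libraries. Of the 9028 genes that averaged 10 CPM or more over all libraries, 8.94% to 23.7% were under 1 CPM in a young library, and 0.133% to 18.4% in a midage library. This share is called the drop-out share here. Most libraries are midage, and 29 of the 34 genes are among those averaged, so a gene with little transcript in young HSCs also counts toward it. As a covariate it is thus not independent of the age effect. Among the 34 genes, 11 to 17 were under 1 CPM in each young library and 0 to 7 in each midage library. Midage mouse 6 had the highest drop-out share of its age, 18.4% in LEPR+ and 11.5% in LEPR- HSCs, and held the lowest midage value for 17 of the 34 genes in each fraction. The part that drop-out played in the results below was not tested. For the genes whose call ended with it as a covariate, or was made without both libraries of mouse 6, those values are given below. Leaving out mouse 6 also raised the number of all genes called in each age fit. A gene lowest in mouse 6 among midage libraries has a higher midage mean without it, so a call gained that way is partly built in.

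Promoter windows were taken for the genes with the smallest p in the fit on counts summed per mouse: Rorb, Arhgap29, Enpp5 and Clu. Those of Arhgap29 and Clu overlap annotated exons, so only those of Rorb and Enpp5 are printed. The sequences are the 250 bases before the start of the gene model, read 5′ to 3′ on the gene's own strand from GRCm39 (GENCODE vM39). The Rorb window is chr19:19088586-19088835 on the minus strand, and the Enpp5 window is chr17:44389425-44389674 on the plus strand. Capitals mark AGGAAG, the core bound by many ETS factors, searched on both strands.
Rorb: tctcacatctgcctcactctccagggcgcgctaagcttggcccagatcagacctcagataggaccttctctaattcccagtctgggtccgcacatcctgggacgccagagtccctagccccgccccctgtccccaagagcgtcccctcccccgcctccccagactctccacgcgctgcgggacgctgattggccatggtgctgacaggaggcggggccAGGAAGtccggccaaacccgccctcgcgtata
Enpp5: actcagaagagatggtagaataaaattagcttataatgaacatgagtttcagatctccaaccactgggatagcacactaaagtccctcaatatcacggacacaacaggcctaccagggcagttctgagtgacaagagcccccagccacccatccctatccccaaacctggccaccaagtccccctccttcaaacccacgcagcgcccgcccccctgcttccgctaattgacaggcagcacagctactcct
The Rorb window had a GC content of 65.2% with 16 CG dinucleotides and held the motif once, from base 219. The Enpp5 window had a GC content of 52.8% with 5 CG dinucleotides and held no match.

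Across all 34 windows the median GC content was 52.4%, against 53.2% over 21770 promoters, and the median number of CG dinucleotides was 6 against 8. AGGAAG was in 12 of the 34 windows, 35.3%, against 28.9% of all promoters. TGANTCA, the core of AP-1 sites, was in 1 window, that of Selp, or 2.94% against 6.17%. TGTGGT, which RUNX factors bind, was in the windows of Art4 and Mmrn1, or 5.88% against 13.02%. AGATAA, the core that GATA factors bind, was in the window of Cd38 alone, or 2.94% against 9.60%, and TATAAA was in those of Aldh1a1 and Fhl1, or 5.88% against 11.9%. The 5 motifs were counted on both strands and none contains another. A match describes letters and is not a binding site.

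In LEPR+ HSCs 5 of the 34 genes were higher at midage: Enpp5, Arhgap29, Rorb, Sult1a1 and Cavin2. Of all genes tested in that fraction, 0.161% were called higher and 0.173% in either direction. A further 15 genes were not called although every one of the 7 midage values lay above every one of the 4 young values, a separation that 2.06% of all genes tested showed. These were Selp, Wwtr1, Ehd3, Clu, Aldh1a1, Gpr183, Fhl1, Ptprk, Jam2, Clec1a, Gstm2, Alcam, Gda, Plscr2 and Cd38. The remaining 14 were neither called nor separated. The median log2 fold change over the 34 genes was 2.77, against 0.25 over all genes tested, and 33 of 34 fitted values were above 0, against 58.1% of all genes. Leaving out the LEPR+ library of any 1 of mice 1, 3, 4, 7, 8, 9, 10 or 11 left 3 genes called. Leaving out both libraries of mouse 6 gave 10, with far more of all genes called as well, as given below. With the mouse as a random block limma-voom called 12, against 11 without the block. In bulk RNA of this kind, fewer cells that make a transcript and less transcript per cell cannot be told apart.

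In LEPR- HSCs 8 of the 34 genes were higher at midage, against 3.31% of all genes tested, and 3.84% were called in either direction. They were the same 5 genes as in LEPR+ HSCs together with Tc2n, Selp and Plscr2. Another 9 were separated without a call, against 4.19% of all genes: Plcl1, Clu, Fhl1, Gstm2, Gpr183, Ehd3, Aldh1a1, Alcam and Tm4sf1. The other 17 were not separated. The median log2 fold change was 2.33, against 0.33 over all genes, and 32 of 34 fitted values were above 0, against 58.4%. None of the 34 was called lower in either fraction. Without the LEPR- library of mouse 2 the count was 5. Without that of mouse 6 it was 14 in either direction, with 1668 of all genes called, against 667 with all libraries. With the mouse as a random block limma-voom called 20, against 19 without the block, and 3 remained with the drop-out share as a covariate (Enpp5, Arhgap29 and Rorb). Of the 5 calls that ended under that covariate, those of Sult1a1, Selp, Plscr2 and Tc2n kept a fitted log2 fold change of 2.22, 2.91, 5.23 and 10.04, the last of which is no bound as Tc2n had no young count, while that of Cavin2 went to 0.29.

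Summing the LEPR+ and LEPR- counts of each mouse gave 1 value per animal, and 14 of the 34 genes were then called higher at midage, against 1.57% of all genes tested, and 1.82% were called in either direction. Another 6 were separated without a call (Gpr183, Zswim5, Cd38, Alcam, Ptprk and Plcl1), against 3.39% of all genes. The median log2 fold change was 2.30, against 0.13, and 33 of 34 fitted values were above 0, against 54.8%. All 14 were called in a fraction or separated in at least 1 fraction. The 7 that only the sums called were Clu, Ehd3, Aldh1a1, Fhl1, Tm4sf1, Gstm2 and Clec1a. Tc2n was called in LEPR- HSCs and not in the sums. In all, 15 of the 34 genes were called in at least 1 of the 3 fits, 13 were separated in both fractions, 23 in at least 1, and 11 in neither. The share of all genes that met these joint criteria was not counted, so these numbers are a tally only. Without mouse 6 the sums called 20 of the 34 genes, 19 higher and Cd9 lower, with 2430 of all genes called, against 310 with all mice. Leaving out any 1 of mice 7 to 11 gave 6 or 7, and leaving out mouse 3 or mouse 4 gave 8. Of the calls in the sums, that of Clec1a was lost in 12 of 20 alternative fits and that of Tm4sf1 in 9. Those of Cavin2, Fhl1, Gstm2 and Plscr2 were each lost in 11, that of Sult1a1 in 8 and that of Selp in 5. Those of Rorb, Arhgap29, Enpp5, Clu, Ehd3 and Aldh1a1 were kept in all 20. Sex as a covariate ended the calls of Clec1a, Fhl1, Gstm2 and Plscr2. The 3 fits use the same mice, and the sums use the same counts, so they are not independent of each other.

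**Figure D1:**
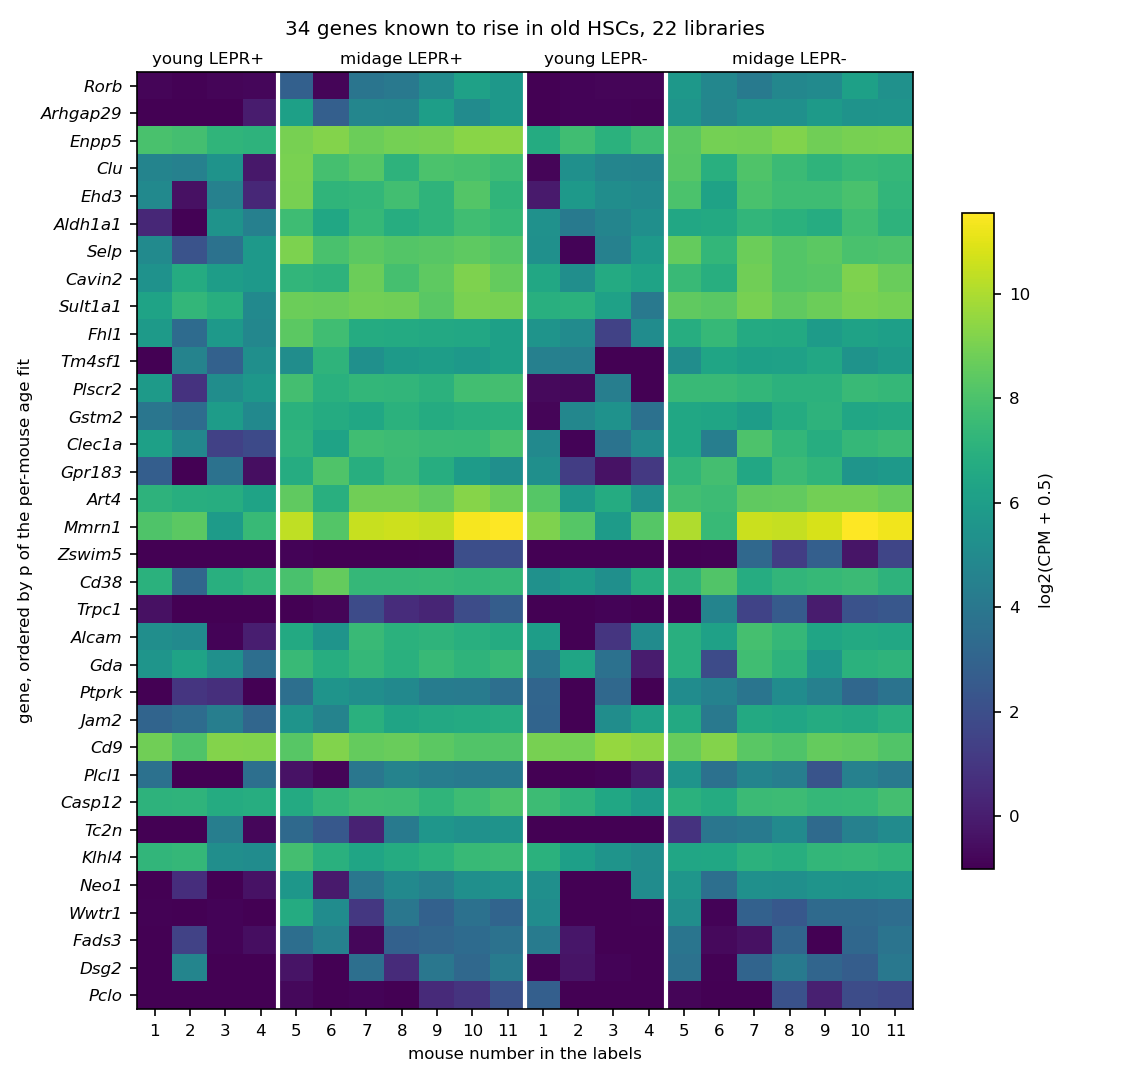
Level of each of the 34 genes (rows, ordered by the p of the fit on counts summed per mouse; colour, log2 of TMM-scaled CPM plus a small constant) in each of the 22 libraries (columns, by group and mouse number). The young columns hold 11 to 17 genes under 1 CPM each and the midage columns 0 to 7, with mouse 6 lowest among midage libraries for 17 genes in each fraction.

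Ranked by fold change, the genes near 0 in young libraries came first and moderately expressed genes followed. In LEPR+ HSCs the order began with Wwtr1, Arhgap29, Rorb, Neo1 and Ptprk and ended with Cd38, Klhl4, Casp12, Dsg2 and Cd9. In LEPR- HSCs it began with Arhgap29, Tc2n, Trpc1, Rorb and Plcl1 and ended with Fads3, Casp12, Wwtr1, Pclo and Cd9. The fold change and the call gave different orders: Enpp5 was 28th of 34 by fold change in LEPR+ HSCs and had the smallest adjusted p of the 34. Wwtr1 was first in LEPR+ HSCs, was not called there, and was 32nd in LEPR- HSCs. Where a young group held 3 counts or fewer, the gene was placed by a bound or by the ratio of pooled CPM. In LEPR+ HSCs Zswim5 was at least 34.9-fold higher and Pclo at least 33.1-fold higher than the floor of 3 counts over the young group, neither with a call. These pooled bounds rest on few libraries. For each of these genes 5 of the 7 midage LEPR+ libraries were under 1 CPM, with medians of 0.0301 CPM for Zswim5 and 0.110 CPM for Pclo.

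**Figure D2:**
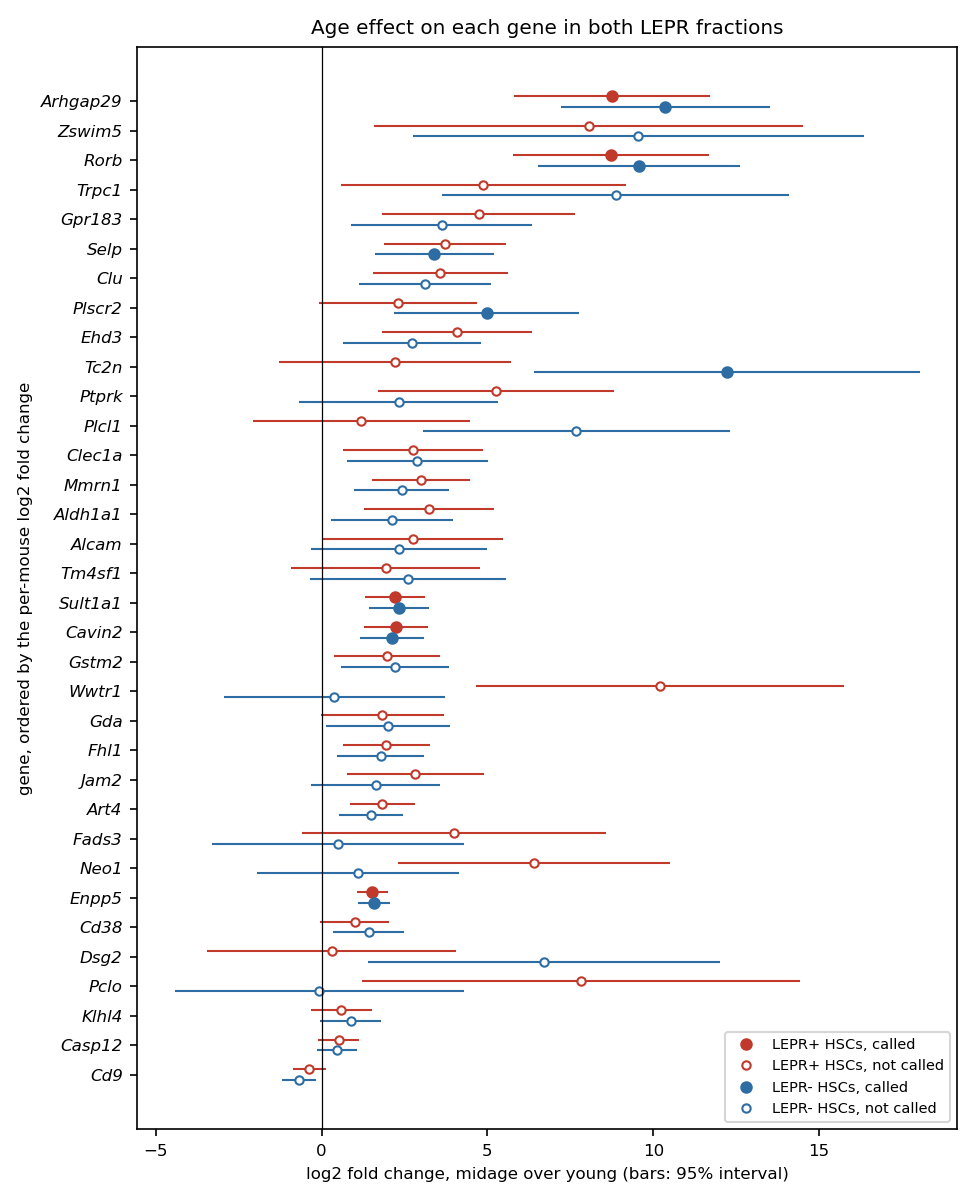
Log2 fold change from young to midage for each of the 34 genes in LEPR+ (red) and LEPR- (blue) HSCs, with bars for the 95% confidence interval of the fit and filled points for the 5 and 8 called genes. Called genes include narrow intervals at moderate change, such as Enpp5, and wide ones at large change, such as Rorb, while the fitted points of genes with 3 young counts or fewer are not bounds.

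Regulators of transcription and a LIM-domain protein made up 3 of the 34 genes, and of these Rorb was called in each fit. Rorb encodes a nuclear receptor of the ROR family, best known from retina and brain, and lies at chr19:18907969-19088585 on the minus strand of GRCm39. It was at 0.0629, 0.0288, 0.0711 and 0.0914 CPM in LEPR+ HSCs of young mice 1 to 4 and at 0, 0.0490, 0.0721 and 0.0625 CPM in their LEPR- HSCs. At midage it ran from 0.0711 CPM in mouse 6 through a median of 16.4 to 71.8 CPM in mouse 10 in LEPR+ HSCs, and from 17.4 through 31.4 to 69.8 CPM in LEPR- HSCs. All LEPR- libraries were thus apart by age, and among LEPR+ libraries mouse 6 alone stayed within the young range. The log2 fold change was 8.73 (SE 1.42, adjusted p = 0.0114) in LEPR+, 9.58 (SE 1.46, adjusted p = 0.00148) in LEPR- HSCs and 9.28 (SE 0.78, adjusted p = 0.00110) in the sums.

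Fhl1, a LIM-domain protein of muscle and cytoskeleton, was separated in both fractions and called in the sums. Its young values were 57.3, 9.88, 55.0 and 27.2 CPM in LEPR+ and 44.7, 32.2, 2.31 and 34.04 CPM in LEPR- HSCs. At midage they ran from 69.9 through 103 to 333 CPM and from 58.5 through 99.1 to 167 CPM. The lowest midage library was above the highest young library in each fraction, and the log2 fold change in the sums was 1.87 (SE 0.39, adjusted p = 0.0387). The call in the sums was lost in 11 of 20 alternatives. Wwtr1, the Hippo pathway co-activator TAZ, was at most 0.0356 CPM in each young LEPR+ library and at 1.58 to 106 CPM in the midage ones. With 2 young counts in all, its ratio was 1157 with a counting interval of 320 to 9559, and the call was missed (adjusted p = 0.0953); without mouse 6 it was made (adjusted p = 0.0374). In young LEPR- HSCs mouse 1 held 33.9 CPM of Wwtr1 and the other mice at most 0.0313 CPM, so the fitted change was 0.39 (adjusted p = 0.919). Without that mouse it was 9.45 and called (adjusted p = 0.0202).

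Metabolic enzymes were 5 of the 34 genes, with 1 called in each fraction and 3 in the sums, against 0.161% of all genes called higher in LEPR+, 3.31% in LEPR- HSCs and 1.57% in the sums. Sult1a1, a phenol sulfotransferase, was the one called in each fit. It was at 77.9, 161, 116 and 30.4 CPM in young LEPR+ and at 122, 127, 71.4 and 16.4 CPM in young LEPR- HSCs. Midage values ran from 318 through 460 to 514 CPM in LEPR+ HSCs and from 329 through 424 to 524 CPM in LEPR- HSCs. The groups did not overlap in either fraction. The log2 fold change was 2.20 (SE 0.43, adjusted p = 0.0400) and 2.34 (SE 0.44, adjusted p = 0.00698). The LEPR+ call was lost in 13 of 23 alternatives, with a fitted change of 1.86 to 2.54 over all 23. The LEPR- call was lost in 1, the drop-out share as a covariate (2.22, adjusted p = 0.110). The gene shares 460 exon bases with Sgf29 on the other strand, and whether the counting used strand is not given in the sources used here.

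Aldh1a1 oxidises retinal and other aldehydes. It was at 0.818, 0.0288, 43.6 and 21.6 CPM in young LEPR+ HSCs and at 40.9, 17.4, 25.9 and 37.4 CPM in young LEPR- HSCs. At midage the values ran from 88.9 through 167 to 210 CPM and from 90.5 through 131 to 207 CPM. Every midage library was above every young one, with a wide spread among the young LEPR+ libraries. The change was called in the sums (log2 fold change 2.60, SE 0.43, adjusted p = 0.0187) and missed in LEPR+ (adjusted p = 0.123) and LEPR- HSCs (adjusted p = 0.126).

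Gstm2, a glutathione transferase of the mu class, followed the same course. Its young values were 14.7, 10.2, 61.7 and 30.2 CPM in LEPR+ and 0.0645, 27.6, 41.3 and 12.3 CPM in LEPR- HSCs. The midage libraries ran from 88.7 through 119 to 130 CPM and from 62.4 through 89.7 to 139 CPM. The groups did not overlap, and the call was made in the sums only (2.10, SE 0.46, adjusted p = 0.0431). That call was lost in 11 of 20 alternatives. Its sequence is close to that of other mu-class genes, so reads that fit several copies could have been lost or shared in the counting. Gda, guanine deaminase of purine breakdown, was separated in LEPR+ HSCs only, and in LEPR- HSCs mouse 6 fell to 3.12 CPM against a midage median of 130 CPM. Fads3, a member of the fatty acid desaturase family, was at most 22.03 CPM in any library and was separated in neither fraction.

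Receptors and surface enzymes were 5 genes, of which Enpp5 was called in each fit. Enpp5 encodes a membrane protein of the ectonucleotide pyrophosphatase family, at chr17:44389675-44414680 on the plus strand of GRCm39. Young values were 248, 220, 149 and 139 CPM in LEPR+ and 104, 208, 130 and 197 CPM in LEPR- HSCs. At midage the range went from 430 through 499 to 660 CPM and from 321 through 491 to 580 CPM. It had no library near 0 in any group, and young and midage values did not overlap. The log2 fold change was 1.52 (SE 0.23, adjusted p = 0.00768) in LEPR+, 1.58 (SE 0.23, adjusted p = 0.00116) in LEPR- HSCs and 1.49 (SE 0.17, adjusted p = 0.00579) in the sums. It was called in all 3 fits under every alternative run. The 1086 exon bases it shares with Enpp4 on the other strand cannot be told apart without strand.

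Cd38, an ectoenzyme that uses NAD, was 1 of the 4 genes with the smallest change among the 29 that averaged at least 10 CPM. It was at 129, 8.24, 119 and 160 CPM in young LEPR+ and at 39.8, 59.6, 37.9 and 114 CPM in young LEPR- HSCs. Among midage mice values ran from 160 through 166 to 380 CPM and from 108 through 153 to 282 CPM. The highest young value of LEPR+ HSCs, in mouse 4, almost met the lowest midage value, and LEPR- HSCs overlapped. The fitted change was 1.00 (SE 0.50, adjusted p = 0.280) and 1.42 (SE 0.51, adjusted p = 0.0928), without a call. Gpr183, an oxysterol receptor of immune cell migration, was separated in both fractions without a call (adjusted p = 0.125, 0.0932 and 0.0518 in the sums). In LEPR+ HSCs it was at 37.1 to 276 CPM at midage against 0 to 12.6 CPM in young libraries. In LEPR- HSCs it was at 46.9 to 221 CPM against 0.252 to 37.9 CPM. The highest young value came from the LEPR- library of mouse 1, and without that library the change in LEPR- HSCs was called (6.61, adjusted p = 0.0222). Without mouse 6 it was called in the sums (3.83, adjusted p = 0.0264).

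Art4, the Dombrock blood group protein, ran from 39.5 to 305 CPM in young and from 120 to 608 CPM in midage libraries. Mouse 6 held the lowest midage value in both fractions. The change was not called (adjusted p = 0.0944, 0.0684 and 0.0544 in the sums) and was called without mouse 6 in each fit (adjusted p = 0.0191, 0.0219 and 0.0127). With drop-out as a covariate the fitted change in LEPR- HSCs was -0.20. Trpc1, a cation channel subunit, had 1 count in all young LEPR- libraries together, a ratio of 842 with a counting interval of 151 to 33278, and no call (adjusted p = 0.0516), and was called there without mouse 6 (adjusted p = 0.0339).

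Genes of membrane traffic, scaffolds and signalling were the second largest group, with 9 members, of which 2 were called in LEPR+ HSCs, 4 in LEPR- HSCs and 4 in the sums, against the same 0.161%, 3.31% and 1.57% of all genes. Arhgap29, which switches off the small GTPase RhoA and lies at chr3:121746190-121812175 on the plus strand, was nearly absent from young HSCs. It was at 0, 0, 0 and 0.457 CPM in young LEPR+ and at 0, 0.0490, 0.0361 and 0.0313 CPM in young LEPR- HSCs. In the midage groups values went from 6.47 through 33.2 to 70.4 CPM and from 26.3 through 43.3 to 55.9 CPM, with mouse 6 lowest in both. All 14 midage libraries were above all 8 young ones. The log2 fold change was 8.75 (SE 1.43, adjusted p = 0.0114) in LEPR+ HSCs. In LEPR- HSCs, with 3 young counts, the ratio was 1669 with a counting interval of 571 to 8094 (adjusted p = 0.00122).

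Cavin2, a coat protein of caveolae, rose in each fit from a level that all young libraries had. It was at 41.9, 106, 63.8 and 54.2 CPM in young LEPR+ and at 91.2, 36.9, 103 and 76.0 CPM in young LEPR- HSCs. Midage values ran from 138 through 341 to 551 CPM and from 116 through 318 to 564 CPM, with mouse 6 lowest and mouse 10 highest in both fractions. The log2 fold change was 2.26 (SE 0.46, adjusted p = 0.0474) and 2.12 (SE 0.46, adjusted p = 0.0173). With the drop-out share as a covariate it was 1.45 (adjusted p = 0.0728) and 0.29 (adjusted p = 0.960), and the call was lost in both. The LEPR+ call was lost in 16 of 23 alternatives and the LEPR- call in 4.

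Ehd3, an ATPase of endosome recycling, was separated in both fractions and called in the sums. Its young values were 30.7, 0.230, 22.2 and 0.822 CPM in LEPR+ and 0.451, 53.2, 35.2 and 31.2 CPM in LEPR- HSCs. The midage libraries ran from 143 through 160 to 505 CPM and from 74.3 through 204 to 253 CPM. Low libraries belonged to different young mice in the 2 fractions, and in the sums the log2 fold change was 3.22 (SE 0.39, adjusted p = 0.00579). Without mouse 6 Ehd3 was also called in LEPR+ HSCs (4.17, adjusted p = 0.0445).

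Plscr2, of the phospholipid scramblase family, was at 56.6, 1.27, 34.99 and 49.8 CPM in young LEPR+ and at 0.129, 0.0981, 20.4 and 0 CPM in young LEPR- HSCs. At midage the range went from 126 through 157 to 226 CPM and from 132 through 166 to 183 CPM. The midage ranges of both fractions overlapped, and 3 of the 4 young LEPR- libraries were near 0. The change was called in LEPR- HSCs (4.98, SE 1.34, adjusted p = 0.0433) and not in LEPR+ HSCs (2.30, SE 1.15, adjusted p = 0.275). The LEPR- call was lost in 12 of 23 alternatives, with a fitted change of 4.53 to 10.99 over all 23, and the drop-out share as a covariate was among them (5.23, adjusted p = 0.154). The difference of the changes was not called (adjusted p = 0.538).

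Tc2n, a protein with C2 domains, had no count in the young LEPR- libraries and was at 0, 0, 20.02 and 0.0914 CPM in the young LEPR+ ones. Among midage mice values ran from 0.641 through 17.0 to 47.7 CPM in LEPR+ and from 1.28 through 17.3 to 33.1 CPM in LEPR- HSCs. The LEPR+ library of young mouse 3 was thus within the midage range, and the other young libraries were under it. In LEPR- HSCs Tc2n was at least 855-fold higher at midage than the floor of 3 counts over the young group (adjusted p = 0.0254). That call was lost in 4 of 23 alternatives, among them the drop-out share as a covariate (adjusted p = 0.0925). In LEPR+ HSCs the fitted change was 2.22 (SE 1.66, adjusted p = 0.553), and without mouse 3 it was 9.91 and still not called (adjusted p = 0.0702). In the sums without mouse 3 it was 11.39 and called (adjusted p = 0.00903).

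Klhl4, a Kelch-repeat protein, was not called in any fit. It was at 153, 163, 36.5 and 33.5 CPM in young LEPR+ and at 130, 67.9, 45.1 and 35.6 CPM in young LEPR- HSCs. In the midage groups values went from 82.9 through 131 to 219 CPM and from 84.9 through 134 to 164 CPM, within reach of young mice 1 and 2 in LEPR+ HSCs. The fitted change was 0.60 (SE 0.44, adjusted p = 0.536) and 0.88 (SE 0.45, adjusted p = 0.202). Plcl1, a catalytically inactive relative of phospholipase C, was separated in LEPR- HSCs without a call (adjusted p = 0.0547), and was called there without mouse 6 (7.77, adjusted p = 0.0263). Pclo, a presynaptic scaffold, was at most 6.38 CPM in any library. Zswim5, a zinc-finger protein, had no young count and at most 9.07 CPM at midage, and 3440 of its exon bases are shared with Urod on the other strand. It was called in the sums without mouse 6 (adjusted p = 0.0198).

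Adhesion molecules were the largest group, with 10 members, of which none was called in LEPR+ HSCs, 1 in LEPR- HSCs and 3 in the sums, against 0.161%, 3.31% and 1.57% of all genes. In the same order, 5, 3 and 4 of the 10 were separated, against 2.06%, 4.19% and 3.39% of all genes, and their median log2 fold change was 2.80, 2.38 and 2.39. Selp, which tethers leukocytes and is stored in platelets and endothelium, was the member called in LEPR- HSCs. It was at 31.7, 4.21, 12.8 and 53.6 CPM in young LEPR+ and at 38.97, 0.0490, 22.1 and 53.2 CPM in young LEPR- HSCs. Midage values ran from 246 through 315 to 532 CPM and from 157 through 295 to 425 CPM. Each midage library was above each young one in both fractions. The log2 fold change was 3.72 (SE 0.88, adjusted p = 0.0752) in LEPR+, 3.40 (SE 0.87, adjusted p = 0.0356) in LEPR- HSCs and 3.52 (SE 0.65, adjusted p = 0.0269) in the sums. Without mouse 6 it was also called in LEPR+ HSCs (adjusted p = 0.0324). The LEPR- call was lost in 8 of 23 alternatives, among them the drop-out share as a covariate (2.91, adjusted p = 0.224). Selp shares 1149 exon bases with Gm69625 and Gm16548 on the other strand, which cannot be told apart without strand.

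Tm4sf1, a membrane protein of vascular cells, was at 0, 23.6, 6.93 and 38.2 CPM in young LEPR+ and at 21.6, 20.9, 0 and 0 CPM in young LEPR- HSCs. The midage libraries ran from 34.7 through 56.5 to 143 CPM and from 34.8 through 69.8 to 90.1 CPM. Young mouse 4 overlapped the lowest midage library in LEPR+ HSCs, and LEPR- HSCs did not overlap. The change was called in the sums (2.38, SE 0.50, adjusted p = 0.0391), a call lost in 9 of 20 alternatives. Clec1a, a C-type lectin receptor, was also called in the sums (2.66, SE 0.58, adjusted p = 0.0438), with 0.0490 to 70.0 CPM in young and 20.2 to 260 CPM in midage libraries. Its call was lost in 12 of 20 alternatives. Clec1a shares 3597 exon bases with genes on the other strand, and its count cannot be told apart from theirs without strand.

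Mmrn1, multimerin of platelet granules and endothelium, had the highest level per kilobase of exon of the 34 genes at midage. Its mean was 35.6 CPM per kb in young LEPR+ HSCs and 283 at midage, and 51.8 and 278 CPM per kb in LEPR- HSCs. The young libraries spanned 57.8 to 553 CPM and the midage libraries 177 to 2999 CPM, with mouse 6 lowest of the midage mice. It was not called (adjusted p = 0.0752 in LEPR+, 0.0516 in LEPR- HSCs and 0.0620 in the sums). Without mouse 6 the log2 fold change was 3.17 (adjusted p = 0.00536), 2.62 (adjusted p = 0.00559) and 2.80 (adjusted p = 0.00818), called in each. With drop-out as a covariate it was 1.76 in LEPR+ and -0.49 in LEPR- HSCs, not called in either.

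Alcam, a ligand of CD6, was separated in both fractions without a call. Its midage values lay between 44.5 and 180 CPM in LEPR+ HSCs, against 0.0356 to 36.6 CPM in young libraries. In LEPR- HSCs they lay between 71.4 and 227 CPM, against 0 to 63.6 CPM. Jam2, a junctional adhesion molecule, and Ptprk, a receptor phosphatase of cell contacts, were separated in LEPR+ HSCs only. Without mouse 6 Jam2 was called in the sums (1.97, adjusted p = 0.0451). Neo1, the netrin and repulsive guidance receptor neogenin, was at 0 to 1.04 CPM in young LEPR+ HSCs and at 38.2, 0, 0 and 33.8 CPM in young LEPR- HSCs. Its LEPR- values in young mice 1 and 4 were thus within the midage range of 11.4 to 48.1 CPM. Dsg2, a desmosomal cadherin, was at 25.8 CPM in the LEPR+ library of young mouse 2, above all midage libraries, and at most 0.294 CPM in the other young libraries.

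Cd9, a tetraspanin of platelets and stem cells, was the gene among the 34 whose fitted values were below 0 in all 3 fits. It was at 457, 277, 597 and 576 CPM in young LEPR+ and at 504, 479, 755 and 660 CPM in young LEPR- HSCs. At midage the range went from 282 through 337 to 567.6 CPM and from 271 through 360 to 602 CPM, with mouse 6 highest in both. Without mouse 6 the LEPR- groups would not overlap. The fitted log2 fold change was -0.37 (SE 0.24, adjusted p = 0.455) in LEPR+, -0.68 (SE 0.24, adjusted p = 0.0896) in LEPR- HSCs and -0.56 (SE 0.23, adjusted p = 0.170) in the sums. Leaving out both libraries of mouse 6 turned the LEPR- value into a call of lower expression (-0.84, adjusted p = 0.0129), as it did the sums (-0.71, adjusted p = 0.0283), while LEPR+ was at -0.51 (adjusted p = 0.135). With drop-out as a covariate the values were -0.10 and 0.00. It was the member with the highest mean per kilobase in both young groups, 224 and 282 CPM per kb, and the one whose 95% confidence interval lay below a log2 fold change of 1 in each fit.

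A secreted chaperone and a caspase completed the set. Clu, an extracellular chaperone, was at 24.8, 22.1, 43.0 and 0.365 CPM in young LEPR+ and at 0.0645, 39.4, 25.7 and 24.7 CPM in young LEPR- HSCs. Among midage mice values ran from 138 through 239 to 523 CPM and from 121 through 175 to 313 CPM. All midage libraries were above all young ones, and 1 young library in each fraction was near 0. The change was called in the sums (3.29, SE 0.39, adjusted p = 0.00579) and not by fraction (adjusted p = 0.106 and 0.0632). Without mouse 6 it was called in LEPR- HSCs (3.21, adjusted p = 0.0434). Casp12, an inflammatory caspase, was at 139, 142, 106 and 113 CPM in young LEPR+ and at 197, 143, 89.3 and 58.7 CPM in young LEPR- HSCs. In the midage groups values went from 101 through 192 to 255 CPM and from 107 through 172 to 224 CPM, overlapping in both, and the fitted change was 0.52 (SE 0.30, adjusted p = 0.357) and 0.47 (SE 0.30, adjusted p = 0.330).

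**Figure D3:**
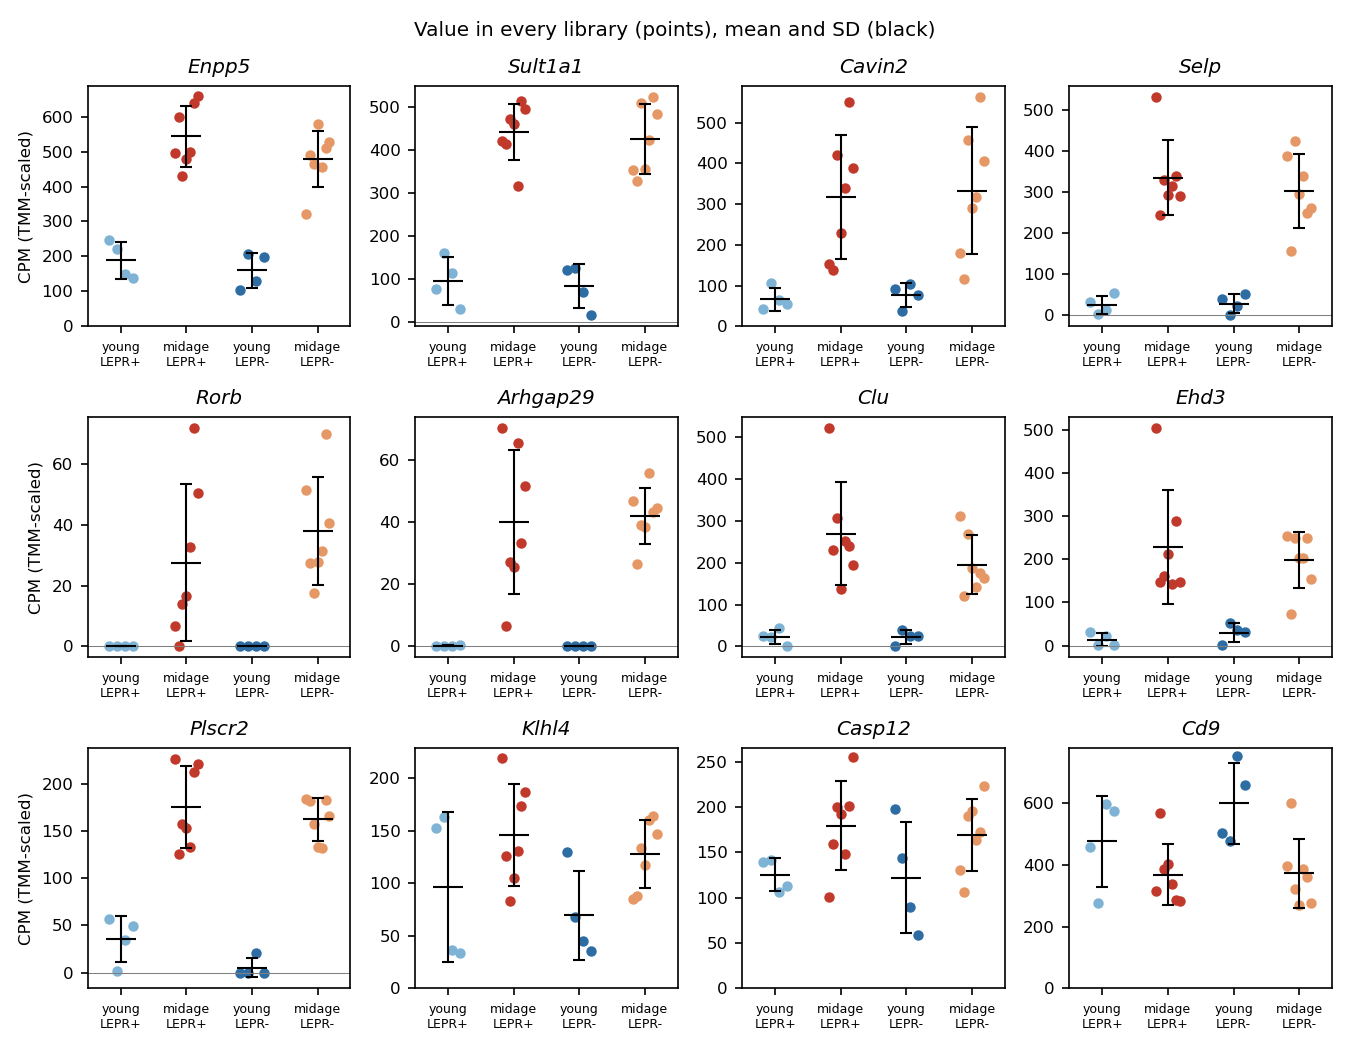
TMM-scaled CPM of 12 of the 34 genes in each library (points), with 4 young and 7 midage mice per LEPR fraction and the mean and SD of each group in black. Enpp5 and Sult1a1 shift as a whole between 2 well-filled groups, Rorb and Arhgap29 are near 0 in the young mice and reach 71.8 and 70.4 CPM at midage, and Klhl4, Casp12 and Cd9 overlap.

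The genes called higher at midage in both fractions were thus Enpp5, Arhgap29, Rorb, Sult1a1 and Cavin2, the last 2 with a LEPR+ call that most alternatives lost, and those furthest from it were Cd9, Casp12 and Klhl4, whose groups overlapped in both fractions and whose fitted changes were under 1 on the log2 scale. The 21 genes that averaged 50 CPM or more over all libraries had a median log2 fold change of 2.26 in LEPR+ and 2.12 in LEPR- HSCs, and the other 13 had 5.26 and 6.71. The fitted changes in the 2 fractions had a Pearson correlation across genes of 0.287 over the 34 genes and 0.766 over those 21. Both fractions come from the same mice, and genes are not independent replicates, so this is a description.

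The LEPR fractions were then compared directly. In midage mice none of the 34 genes was called and none had an unadjusted p under 0.05 in edgeR, and DESeq2 and limma-voom called none either. Of all genes tested, 0.0% were called and 0.875% had an unadjusted p under 0.05. The edgeR fit has no term for the mouse, so the pairing of the fractions within mice was not used. With the mouse as a fixed block the calls among the 34 were unchanged. The lack of a call does not show that the levels were equal. In young mice edgeR called none of the 34 (0.599% of all genes), limma-voom none and DESeq2 6. DESeq2 also called far more of all genes than edgeR did, as given below, so its 6 are not to be set beside the edgeR share. An unadjusted p under 0.05 was found for 7 (Plscr2, Dsg2, Neo1, Tc2n, Pclo, Wwtr1 and Plcl1), against 16.1% of all genes. The smallest adjusted p was that of Tc2n, 0.0879, which rests on the LEPR+ library of mouse 3.

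The difference between the age effects of the 2 fractions was not called for any of the 34 genes in edgeR (0.236% of all genes) or limma-voom, and DESeq2 called 4. Here too DESeq2 called far more of all genes than edgeR did, as given below. An unadjusted p under 0.05 was found for 6 (Dsg2, Neo1, Tc2n, Pclo, Wwtr1 and Plcl1), against 12.8% of all genes. The smallest adjusted p was 0.163, for Tc2n. A call in 1 fraction and not in the other is therefore not shown to be a difference between fractions for any of these genes. For the 5 genes called in both fractions the fitted difference was small beside its error for Enpp5 (-0.06, SE 0.30), Sult1a1 (-0.13, SE 0.55) and Cavin2 (0.14, SE 0.59), and less precise for Rorb (-0.86, SE 1.41) and Arhgap29 (-1.61, SE 1.46).

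**Figure D4:**
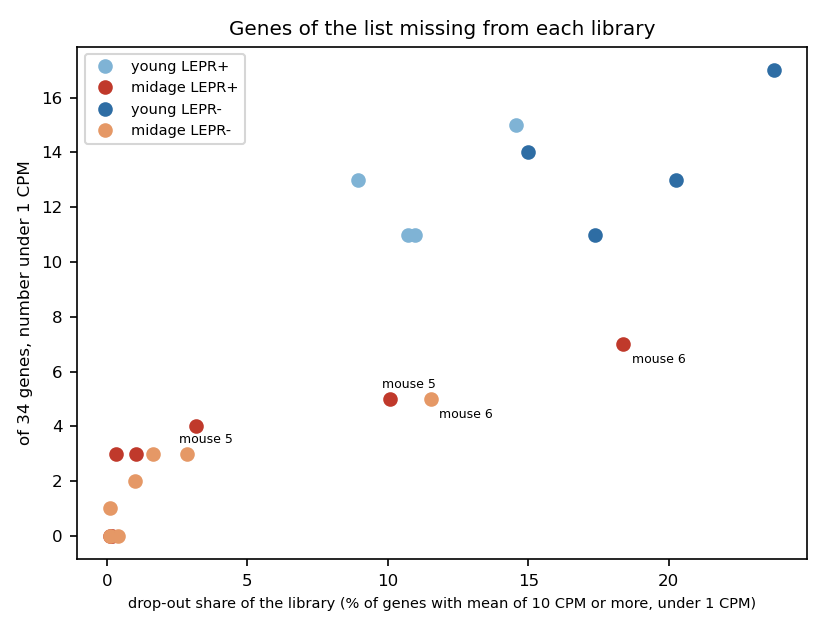
Number of the 34 genes under 1 CPM (vertical axis) against the drop-out share of each of the 22 libraries (horizontal axis, % of 9028 genes), by group. Young libraries lie at 8.94% to 23.7% with 11 to 17 genes under 1 CPM, and midage libraries at 0 to 7 genes, mouse 6 having the largest share among them.

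Several members are also made by megakaryocytes, platelets or endothelium, so markers of those cells were set beside the results. The 10 megakaryocyte and platelet genes summed to 315 to 1555 CPM in young and 180 to 992 CPM in midage libraries, with a median log2 fold change of -0.96 in LEPR+ and -0.33 in LEPR- HSCs over the 9 tested. Of these, Gp1ba was called higher in LEPR- HSCs and in the sums. The 7 endothelial genes summed to 45.5 to 351 CPM in young and 87.3 to 413 CPM in midage libraries. Their median sum went from 88.4 to 212 CPM in LEPR+ and from 59.7 to 184 CPM in LEPR- HSCs, higher at midage in both. The median log2 fold change of the 6 tested was 0.31 in LEPR+, 2.03 in LEPR- HSCs and 1.23 in the sums. Of the 6, Kdr was called higher, in LEPR- HSCs, where it had no young count. Cdh5, a cadherin of endothelium, had no count in midage LEPR+ HSCs and had counts in each other group, midage LEPR- HSCs among them. The median sum of the 9 stromal genes went from 9.24 to 15.8 CPM in LEPR+ HSCs and from 0.111 to 14.2 CPM in LEPR- HSCs, again higher at midage in both. Their 4 tested genes had a median log2 fold change of 0.79 and 6.98, the latter no bound since 5 of the 9 had no count in young LEPR- HSCs, and none was called in either fraction or the sums. Bglap was at 0 in each group. The part of such cells in the changes of the 34 genes was not tested.

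Some of the genes lie close together. Rorb, Aldh1a1 and Gda fall within 2.54 Mb of chromosome 19 (18907969 to 21450809, GRCm39). The 3 other genes tested in that interval were not called in any of the fits: Anxa1 had a fitted change of -0.08 in LEPR+ and -0.20 in LEPR- HSCs, Zfand5 of -0.07 and -1.06, and Aldh1a7, a close relative of Aldh1a1, of -8.52 (SE 2.57) and -4.63 (SE 2.20). Tm4sf1 and Wwtr1 lie within 0.290 Mb of chromosome 3. Of the 2 other genes tested there, neither was called: Gm16016 had a fitted change of 7.65 (SE 2.91) in LEPR+ HSCs, 7.15 (SE 2.80) in LEPR- HSCs and 8.50 (SE 2.41, adjusted p = 0.0851) in the sums, and Gm5276 of 0.41, 1.11 and 0.64.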

How the data were processed

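Poly(A) RNA of sorted bone marrow HSCs was sequenced in 22 libraries from 11 mice. Each library has 1 deposited file of raw counts by gene identifier, with no normalization. Per the submitters' processing notes FastQC, cutadapt, STAR, HTSeq and DESeq2 were used with GRCm39. Their versions, the annotation and the strand setting are not given in the sources used here. Beyond the overlaps given above, exon bases are shared with the other strand by Fads3 (1064), Pclo (925), Aldh1a1 (646), Jam2 (485) and Tc2n (434). Shorter overlaps are annotated for Neo1, Dsg2, Cd9, Cavin2, Trpc1 and Cd38. Of 55416 identifiers 54749 matched GENCODE vM39, and the rest held 0.0454% of counts. HTSeq's rows of reads outside genes, 29.1% to 40.3% of each library's records, were left out of totals and tests.

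Counts were scaled by TMM, filtered with filterByExpr (minimum count 10, total 15) and tested with edgeR 4.0.16 (R 4.3.3) in a single model of the 22 libraries and 4 groups, and again on counts summed per mouse. The median biological coefficient of variation was 1.26. The fits were tested on simulated data. DESeq2 1.42.0 and limma 3.58.1 served as alternatives. Counting intervals are exact at 95% and, like the floor of 3 counts, cover counting error only, since reads carry no molecular identifiers. Same-numbered libraries come from the same mouse per the labels. Within each mouse the deviations of its LEPR+ and LEPR- libraries from their group means correlated at 0.0402 to 0.656.

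The genes and lists were chosen with earlier results of these data known. All 34 genes are accounted for. Young values by mouse, and the lowest, median and highest midage value, are given for 2 sets of genes. These are the 14 called genes with the smallest adjusted p over the 3 age fits, and the 4 genes with the smallest change among those averaging 10 CPM or more. Mmrn1, Art4, Neo1, Gpr183, Wwtr1 and Dsg2 were described further after their values were seen.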

Additional observations from a re-analysis of the deposited data

Results flagged for a closer look

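In each group of 4 or 7 libraries, a value was picked out where its gap to the nearest library was large for the group's range (Dixon's 95% limit). Of 132 groups tested 25 had such a library. Where all libraries but 1 are at 0, the gap equals the range and the library is picked out at any level. Trpc1 in young LEPR- HSCs was picked out in this way on 1 count. The limit's rate of 1 in 20 is therefore no chance rate for these groups.

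The rule picks out single libraries only, so high values shared by more than 1 young library, as for Neo1 in LEPR- HSCs, were not picked out. All the young values picked were high for their group. In LEPR+ HSCs of young mice these were Dsg2 at 25.8 CPM and Fads3 at 2.30 CPM in mouse 2, Tc2n at 20.02 CPM in mouse 3, Arhgap29 at 0.457 CPM in mouse 4 and Trpc1 at 0.252 CPM in mouse 1. In LEPR- HSCs of young mice, mouse 1 stood out for 4 genes: Gpr183 at 37.9 CPM, Wwtr1 at 33.9 CPM, Fads3 at 18.1 CPM and Pclo at 6.38 CPM. The others were Plscr2 at 20.4 CPM and Trpc1 at 0.0361 CPM in mouse 3, Plcl1 at 0.344 CPM in mouse 4 and Dsg2 at 0.294 CPM in mouse 2. Without mouse 2, the change of Dsg2 in LEPR+ HSCs was 10.97 (edgeR, adjusted p = 0.156) in place of 0.30. Without mouse 1, that of Fads3 in LEPR- HSCs was 5.68 (edgeR, adjusted p = 0.155) in place of 0.48, and that of Pclo was 8.57 (edgeR, adjusted p = 0.129) in place of -0.07. Without mouse 3 the change of Plscr2 in the sums was no longer called (3.60, edgeR, adjusted p = 0.0654), and in LEPR- HSCs it was 10.99 and called (edgeR, adjusted p = 2.84e-05). Without mouse 4 that of Plcl1 in LEPR- HSCs was called (10.28, edgeR, adjusted p = 0.04997), and that of Arhgap29 in LEPR+ HSCs was 13.35 (edgeR, adjusted p = 0.000148).

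At midage, mouse 5 or 6 held 11 of the 12 such values. Mouse 5 was high for Selp (532 CPM), Ehd3 (505 CPM) and Wwtr1 (106 CPM) in LEPR+ HSCs and for Wwtr1 (35.8 CPM) in LEPR- HSCs. Mouse 6 was high for Cd9 (567.6 CPM), Cd38 (380 CPM) and Tm4sf1 (143 CPM) in LEPR+ HSCs and for Cd9 (602 CPM) and Trpc1 (25.1 CPM) in LEPR- HSCs. It was low for Jam2 (16.5 CPM) and Neo1 (11.4 CPM) in LEPR- HSCs. Mouse 11 was high for Pclo (3.77 CPM) in LEPR+ HSCs. Without mouse 6 the change of Jam2 in the sums was called (1.97, edgeR, adjusted p = 0.0451), and without its LEPR- library that of Trpc1 in LEPR- HSCs was called (7.78, edgeR, adjusted p = 0.0423).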

How the results depend on the processing

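Alternatives changed how many genes passed more than which way they moved. In LEPR+ HSCs the 5 of 34 genes called became 2 with the 2 groups fitted alone, 22 with DESeq2, 9 without mice 5 and 6 (added after seeing the data), 10 without mouse 6, 12 with edgeR's bias-adjusted test (also added after seeing the data), 11 with limma-voom, 12 with limma-voom and the mouse as a random replicate block, and 3 with no filter or upper-quartile scaling. In that order, with 85 for the drop-out covariate, all genes called went from 30 to 14, 1864, 1085, 671, 110, 707, 773 and 13, the last with no filter. Without 1 library each they ranged from 12 to 112 over all genes and from 3 to 7 among the 34. In LEPR- HSCs the 8 became 22 with DESeq2, 14 without mice 5 and 6 or mouse 6 alone, 3 with the drop-out covariate, 17 with the bias-adjusted test, 19 with limma-voom and 20 with its block. All genes called went from 667 to 3510 with DESeq2, 2636 and 2260 without those mice, 192 with the drop-out covariate, 2576 with limma-voom, 239 with no filter and 2644 with the block. Without 1 library each they ranged from 280 to 1668 and from 5 to 14. In the sums the 14 became 25 with DESeq2 and 7 with no filter, and ranged from 6 to 20 without 1 mouse each. All genes called went from 310 to 2658 with DESeq2, 2731 and 2430 without those mice, 979 with limma-voom, 72 with no filter and 195 with sex as a covariate, and from 90 to 2430 without 1 mouse each.

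Between LEPR fractions of young mice all genes called went from 104 to 1947 with DESeq2, 234 with the drop-out covariate, 18 with the bias-adjusted test, 61 with no filter and 25 with the mouse as a fixed replicate block, and from 82 to 186 without 1 library each. DESeq2 called 6 of the 34, and leaving out 1 library gave 0 to 1. In midage mice limma-voom and the fixed block called 1 gene each, against 0. For the difference of age effects all genes went from 41 to 1410 with DESeq2, 0 with the bias-adjusted test, 64 with limma-voom, 138 with the random and 7 with the fixed block, and from 31 to 114 without 1 library each. DESeq2 called 4 of the 34, and leaving out 1 library gave 0 to 1. The block changed no call among the 34 in the comparisons between fractions.

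The direction turned for some genes. With the drop-out covariate LEPR+ HSCs gave Dsg2 -4.06 and Plcl1 -1.86, and LEPR- HSCs gave Jam2 -0.87, Dsg2 -3.70, Neo1 -1.53, Mmrn1 -0.49, Art4 -0.20, Casp12 -0.12 and Cd9 0.0036. Leaving out 1 library gave Dsg2 -0.18 to 10.97 in LEPR+ HSCs, Wwtr1 -0.28 to 9.45 in LEPR- HSCs and Pclo -0.52 to 8.57 there. Pclo in LEPR- HSCs was also 0.0908 with DESeq2, 0.0906 with RLE size factors, 0.41 without mice 5 and 6, 0.15 without mouse 6, 2.01 with limma-voom, 0.0423 with no filter, 2.00 with the block and 0.72 with sex as a covariate. Wwtr1 there was -0.0222 without mice 5 and 6. The cause was not tested. Among single-gene values of the age fits, 688 in LEPR+, 649 in LEPR- HSCs and 557 in the sums kept their direction and side of the threshold. Another 54, 79 and 45 gained a call, 32, 29 and 78 lost one, and 6, 25 and 0 turned. Enpp5 was called in each of these alternatives, and Rorb and Arhgap29 in each of those of LEPR- HSCs and the sums. In the smallest library, of 10325587 counts, 3 counts are 0.279 CPM, which limits what can be said of genes near 0.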

Other observations

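Among 18 further genes reported as higher in old HSCs and not among the 34, 3 were called higher at midage in LEPR+ HSCs, 5 in LEPR- HSCs and 4 in counts summed per mouse, against 0.161%, 3.31% and 1.57% of all genes. Their median log2 fold change was 2.12, 2.39 and 2.05, against 0.25, 0.33 and 0.13 over all genes. Nupr1, a stress-induced chromatin protein, had a mean of 27.8 ± 10.7 CPM (SD, n = 4) in young and 316 ± 128 CPM (SD, n = 7) in midage LEPR+ HSCs, a log2 fold change of 3.51 (edgeR, adjusted p = 0.00768). Mt1, a metallothionein that binds zinc and copper, went from 16.5 ± 4.51 to 141 ± 38.2 CPM (log2 fold change 3.09, edgeR, adjusted p = 0.000127). Both were also called in LEPR- HSCs and in the sums. Vwf, the von Willebrand factor of platelet-biased HSCs, was called in the sums (1.62, edgeR, adjusted p = 0.0445) and in neither fraction. The summed level of the 18 genes was 964 to 1907 CPM in young and 2140 to 4540 CPM in midage libraries, with no overlap. This list was chosen with earlier results of these data known, so its numbers are a description and no independent check.

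Lists for lymphoid priming, immediate early genes, the cell cycle and HSC identity held few calls. None of the 5 lymphoid priming genes tested, of 8 listed, was called in any age fit, with medians of -0.12 in LEPR+, -0.79 in LEPR- HSCs and -0.17 in the sums. None of the 9 immediate early genes tested was called (medians 0.68, 0.70 and 0.69). Of 15 cell-cycle genes, Ccnd1, a D-type cyclin, was called higher in LEPR- HSCs (1.73, edgeR, adjusted p = 0.0416), and Cdk1, the mitotic kinase, lower in the sums (-1.84, edgeR, adjusted p = 0.0465). Kit, the receptor used in the sort, was called higher in LEPR- HSCs (1.25, edgeR, adjusted p = 0.0319), with 308 ± 93.6 CPM (SD, n = 4) in young and 731 ± 240 CPM (SD, n = 7) in midage mice.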
